A study of Mus musculus with 8 samples.

Results

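The regions described are peaks of the second Polr1c ChIP-seq library that no other list of the study touches. They were chosen by position: a peak of Polr1c repeat 2 on chromosomes 1 to 19 was a member when it shared no base with a peak of Polr1c repeat 1, of the 2 Mgea5 lists or of the 2 Panx2 lists. The rule gave 7584 members of 35324 Polr1c repeat 2 peaks on these chromosomes (21.5%), out of 1719263 peaks in all 6 lists. Since presence in 1 list and absence from the other 5 chose the members, neither is a result below, and peaks on positions that the other lists favour could not become members.

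The cells were primary hippocampal neural progenitors of male C57BL/6 mice, fixed with formaldehyde for ChIP-seq, in which DNA bound to a protein is pulled down with an antibody and sequenced. The antibodies were against Mgea5 (the O-GlcNAc hydrolase, gene Oga), Panx2 (a pannexin) and Polr1c, each in 2 libraries, beside 2 input libraries that were not used here. The 8 samples share strain, sex, tissue and cell type. The labels do not say whether libraries came from separate cultures or animals. Every value of a member comes from 1 library with no replicate, so no difference below has a test, and all comparisons are descriptions.

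Polr1c is a subunit that RNA polymerases I and III have in common. RNA polymerase I transcribes the large ribosomal RNA precursor, and RNA polymerase III transcribes tRNA, 5S ribosomal RNA and a few other short RNAs, often from A and B box elements inside the gene. Messenger RNAs and most microRNAs come from RNA polymerase II, whose promoters may carry a TATA box, a GC box or the CCAAT box, a short element usually found upstream of the start.

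Some members of highest fold lay on promoters with several CCAAT boxes and others on promoters with none, so examples of both are shown before the values. Each line is the 250 bases upstream of an annotated start, 5′ to 3′ on the strand of the gene, from the RefSeq promoter table on GRCm38.p6, and capitals mark CCAAT or its complement ATTGG. Hmgb2 (a chromatin protein), Arntl (the circadian transcription factor also called Bmal1), Prkaca (a catalytic subunit of protein kinase A), Naa50 (an N-terminal acetyltransferase) and Spred2 (an inhibitor of Ras and ERK signalling) are under members among the 20 of highest fold. Ube2c (the ubiquitin-conjugating enzyme of the anaphase-promoting complex) and Hsp90b1 (a chaperone of the endoplasmic reticulum) were chosen after their values were seen, because they hold many boxes.
Arntl, chr7:113207215-113207464, plus strand: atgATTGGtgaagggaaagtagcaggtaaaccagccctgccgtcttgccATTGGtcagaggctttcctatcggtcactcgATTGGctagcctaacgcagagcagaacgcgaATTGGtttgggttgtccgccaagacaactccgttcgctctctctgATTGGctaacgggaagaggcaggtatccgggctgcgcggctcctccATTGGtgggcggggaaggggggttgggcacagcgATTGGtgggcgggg
Hmgb2, chr8:57511593-57511842, plus strand: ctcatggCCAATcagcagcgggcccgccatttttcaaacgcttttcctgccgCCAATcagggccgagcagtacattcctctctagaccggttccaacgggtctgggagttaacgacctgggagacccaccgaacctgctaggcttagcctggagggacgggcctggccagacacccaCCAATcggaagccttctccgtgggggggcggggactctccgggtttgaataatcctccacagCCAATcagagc
Prkaca, chr8:83972728-83972977, plus strand: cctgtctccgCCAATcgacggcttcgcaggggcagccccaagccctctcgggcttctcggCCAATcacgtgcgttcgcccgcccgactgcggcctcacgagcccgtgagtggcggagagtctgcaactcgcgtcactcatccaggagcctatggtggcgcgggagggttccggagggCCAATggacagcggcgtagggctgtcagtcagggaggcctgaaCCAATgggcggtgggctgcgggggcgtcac
Ube2c, chr2:164769679-164769928, plus strand: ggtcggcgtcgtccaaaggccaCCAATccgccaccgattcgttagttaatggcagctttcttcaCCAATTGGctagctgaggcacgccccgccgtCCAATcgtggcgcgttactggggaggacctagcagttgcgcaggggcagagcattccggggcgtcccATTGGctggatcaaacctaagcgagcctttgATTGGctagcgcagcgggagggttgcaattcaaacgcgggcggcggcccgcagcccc
Hsp90b1, chr10:86705445-86705694, minus strand: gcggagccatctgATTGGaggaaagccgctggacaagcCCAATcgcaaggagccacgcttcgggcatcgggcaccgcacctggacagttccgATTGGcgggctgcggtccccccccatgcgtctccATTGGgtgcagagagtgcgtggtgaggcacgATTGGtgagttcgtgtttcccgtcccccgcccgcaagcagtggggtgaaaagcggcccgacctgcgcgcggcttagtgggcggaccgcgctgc
Naa50, chr16:44139541-44139790, plus strand: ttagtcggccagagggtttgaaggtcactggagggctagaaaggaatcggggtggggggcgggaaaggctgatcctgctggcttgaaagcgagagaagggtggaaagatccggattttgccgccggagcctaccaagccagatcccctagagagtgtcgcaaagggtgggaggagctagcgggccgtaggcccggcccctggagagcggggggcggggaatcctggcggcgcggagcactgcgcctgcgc
Spred2, chr11:19924192-19924441, plus strand: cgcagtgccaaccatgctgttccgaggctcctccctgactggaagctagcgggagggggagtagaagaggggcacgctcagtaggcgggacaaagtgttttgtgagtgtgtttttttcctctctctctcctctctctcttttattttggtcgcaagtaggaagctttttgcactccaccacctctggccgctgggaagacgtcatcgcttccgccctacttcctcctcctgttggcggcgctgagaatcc
The Arntl stretch holds 7 boxes, Ube2c 6, Hsp90b1 5, Hmgb2 and Prkaca 4 each, and Naa50 and Spred2 none. Counts further below use 300 bases, which add 50 bases after the start. In these, Arntl has 8 boxes at the shown start, Hsp90b1 6 and Spred2 1. Of the other members among the 20 of highest fold that touch a promoter, those at Cd151 and at Tk1 and Afmid had 0 boxes in the 300 bases.

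Most members were small. The fold enrichment that the authors deposited, ChIP over local background, ran from 1.86 to 10.3 with a median of 2.75, which was also the median of the 27740 other repeat 2 peaks. The deposited fold and −log10 p of a peak together gave the whole number of fragments piled at its summit, under the usual formula of the peak caller. This pileup was 6 to 122 in members with a median of 8, for which a Poisson 95% interval runs from 3.45 to 15.8, and the median was 9 in the other peaks. The local background was at its genome-wide floor of 2.27 fragments in 64.2% of members and in 48.8% of the other peaks. Intervals of this kind cover counting error only, and fragments without molecular identifiers need not be independent.

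By the authors' q, 113 members (1.49%) reached 0.01 or less, where 3.63% of all repeat 2 peaks on these chromosomes did. The deposited −log10 q was 0 in 2551 members (33.6%), near the 28.8% of all repeat 2 peaks. Members were 144 to 688 bp wide with a median of 170 bp, against 194 bp in the other peaks. A wide peak meets another list more easily than a narrow one, so the rule itself favours narrow members.

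The share of repeat 2 peaks that were members was 28.4% at 6 or 7 fragments, 18.7% at 10 or 11, 6.88% at 15 to 19 and 8.38% at 20 or more. A boundary of 15 fragments, set after the distribution was seen, left 153 strong members (2.02%, where 5.68% of all repeat 2 peaks passed it). Of these 153, 88 had a q of at most 0.01.

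**Figure D1:**
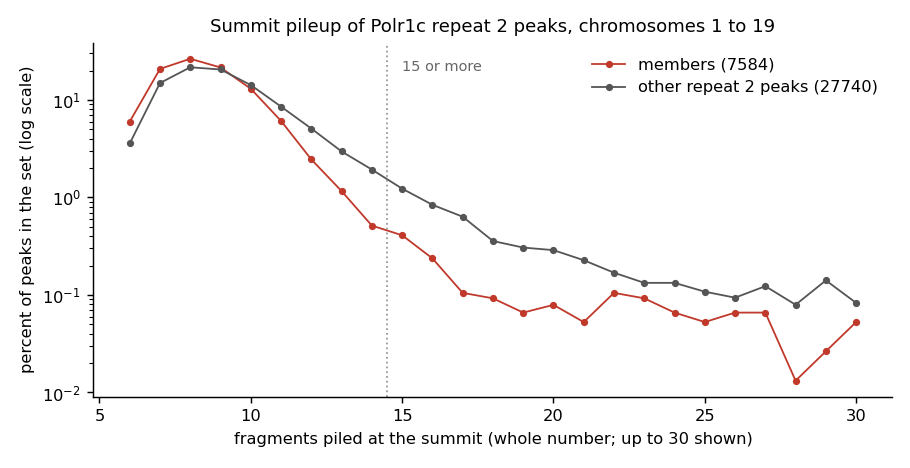
Percent of peaks (log scale) at each whole number of fragments at the summit, up to 30, for the 7584 members and the 27740 other Polr1c repeat 2 peaks. Both sets are most frequent at 8 fragments, and from 10 fragments on every plotted member point lies below the other peaks.

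By position, members as a whole were mostly away from gene ends. Within 1000 bp of either end of a protein-coding gene lay 353 members (4.65%, exact 95% interval 4.19 to 5.15), where 11.0% of all repeat 2 peaks and 3.1% of the chromosome span did. Inside a gene of any class lay 58.8% of members (64.0% of all repeat 2 peaks, 49.4% of the span). Over 10 kb from every gene lay 24.5% (21.2% of all repeat 2 peaks, 34.2% of the span). On a promoter, taken as 250 bp before to 50 bp after a start and without chromosome 18, lay 85 of 7320 members (1.16%, against 3.51% of all repeat 2 peaks). Counted by promoter, 106 of 31396 (0.338%) had a member and 4.36% any repeat 2 peak.

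The position changed with the pileup. Among members with 6 or 7 fragments, 3.64% lay at a protein-coding end, and the share was 3.44% at 8 or 9, 4.83% at 10 or 11, 8.95% at 12 to 14, 29% at 15 to 19 and 42.9% (interval 32.1 to 54.1) at 20 or more. In the other repeat 2 peaks the same shares were 4.95%, 6.69%, 12.6%, 31%, 53% and 37.9%. From 8 to 19 fragments the shares of members were below those of other peaks with intervals that do not overlap, and at 20 or more the intervals overlap. The other 5 lists decided which peaks could be members, so a gap between the sets is a description. The share of members on promoters went from 0.461% at 6 or 7 fragments to 31.6% at 20 or more, and that of the other peaks from 1.29% to 23.5%. The median local background of members went from 2.27 to 6.99 fragments over the same classes, and its part in these shares was not tested.

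**Figure D2:**
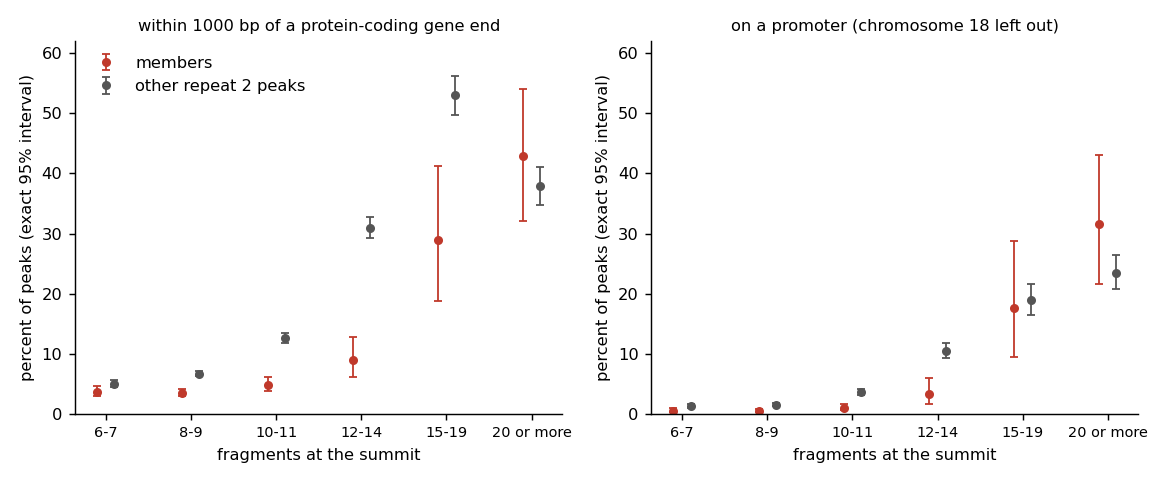
Percent of peaks within 1000 bp of a protein-coding gene end (left) and on a promoter (right) by fragments at the summit, with exact 95% binomial intervals, for members and other Polr1c repeat 2 peaks. Member shares at gene ends are at most 8.95% up to 14 fragments and reach 42.9% at 20 or more.

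Of the 153 strong members, 8 lay at a tRNA gene, 59 of the rest at a protein-coding end or on a promoter, 61 elsewhere inside a gene and 25 outside genes. At tRNA genes lay 5.23% of strong members and 6.53% of other peaks with 15 or more fragments, and inside a gene 75.8% and 78.7%. At ribosomal RNA genes these shares were 0% and 2.11%, and at protein-coding ends 36.6% and 45.5%. The shares at ends pool 2 unlike classes: 29% and 53% at 15 to 19 fragments, and 42.9% and 37.9% at 20 or more. Median pileup of the members was 22 fragments at ends and promoters, 24 at tRNA genes, 20 elsewhere in genes and 19 outside genes. Their summits lay within 500 bp of an annotated start in 47 of 147 (32%, chromosome 18 left out), against 92 of 7173 weaker members (1.28%). In the other repeat 2 peaks the shares were 35% with 15 or more fragments and 5.67% with fewer.

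**Figure D3:**
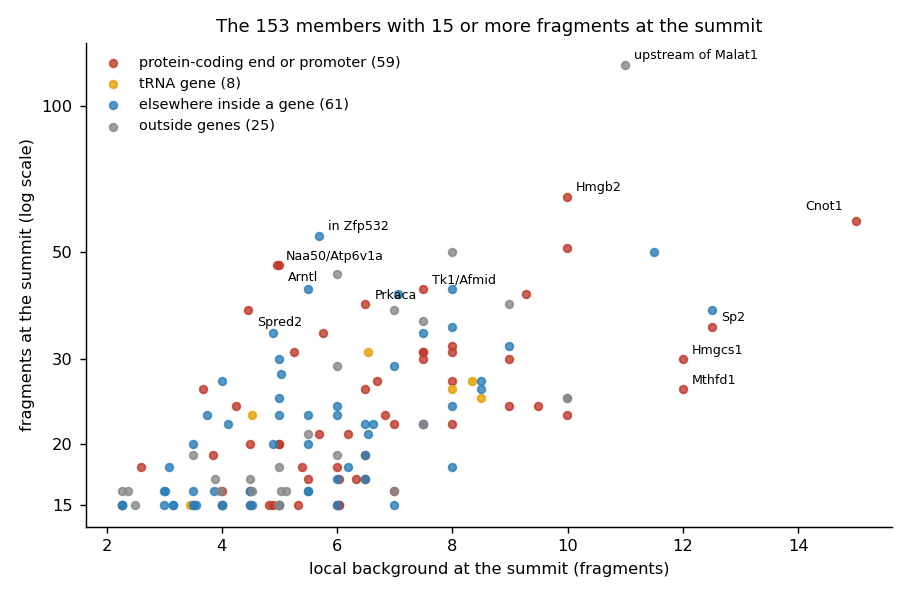
Fragments at the summit (log scale) against local background for the 153 members with 15 or more fragments, 1 point per member, coloured by position. The member upstream of Malat1 has the most fragments, 122, and members at ends, in genes and outside genes overlap over most of the range of background.

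The member of highest fold lay outside genes, upstream of Malat1, an abundant nuclear long non-coding RNA. At chr19:5803503-5803997 (mm10) it had 122 fragments (Poisson 95% interval 101 to 146) over a background of 11, a fold of 10.3 and a q of 3.75e-76. Its summit was 1005 bp upstream of the Malat1 start. Peaks of 4 other lists lay close to it. Panx2 repeat 1 was at 126 bp and Panx2 repeat 2 at 388 bp. Mgea5 repeat 2 was at 279 bp and Mgea5 repeat 1 at 1416 bp. These 4 peaks had folds of 1.52 to 1.76 and a deposited −log10 q of 0. Here and below, folds of the broad Mgea5 and Panx2 peaks are not to be set against those of the narrow Polr1c peaks. The member ranked 2, at chr18:65582088-65582408 inside Zfp532 (a zinc finger gene), had 54 fragments, a fold of 8.23 and a q of 2.40e-29.

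Next came promoters. The member between Naa50 and Atp6v1a (a subunit of the vacuolar proton pump), at chr16:44139430-44139753, had 47 fragments over 4.96 and a fold of 8.05. The member on the shown Arntl promoter, at chr7:113207137-113207534, had 47 fragments over 4.99 and a fold of 8.01, with its summit 146 bp upstream of the start. That start lies inside the Arntl gene model, so this member is not within 1000 bp of a gene end. Panx2 repeat 2 had a peak 86 bp from the Naa50 member, with a fold of 3.46 and a −log10 q of 2.46. Another lay 27 bp from the Arntl member, with a fold of 1.88 and a −log10 q of 0.0617. Absence from the other lists thus did not mean distance from them.

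The member at Spred2 had 38 fragments and a fold of 7.14, with its summit 256 bp upstream of the start. The widest member, 688 bp, covered the Hmgb2 promoter at chr8:57511455-57512142 with 65 fragments over 9.99, a fold of 6.01 and a q of 2.00e-26. Its nearest neighbour was a Mgea5 repeat 1 peak at 26 bp with a fold of 1.66. The member at Prkaca, chr8:83972688-83973043, had 39 fragments and a fold of 5.34. The 3 summits at Arntl, Hmgb2 and Prkaca lay 146, 153 and 155 bp upstream of the start.

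Among the other 20 of highest fold were members in the long non-coding gene Gm2164 (fold 6.62), 4565 bp from Rimklb (6.58), in Hpcal1, a neuronal calcium sensor (5.94), 920 bp from Mfap3l (5.78), between Nsd1, a histone H3 lysine methyltransferase, and Fgfr4 (5.67), in Lratd2 (5.22) and in Asb2 (5.17). A member in Arrdc3 (an arrestin-domain gene) had 27 fragments and a fold of 5.61, and a Polr1c repeat 1 peak of fold 4.5 lay 720 bp away. Close to the start of Cd151 (a tetraspanin) the fold was 5.18, and 698 bp upstream of that of Rap2a (a small GTPase) it was 5.12. On the paired starts of Tk1 (thymidine kinase) and Afmid it was 5.06 with 42 fragments. A member 285 bp from Rprm, a gene of cell cycle arrest, had 18 fragments and a fold of 5.29. The member at chr13:101380630-101380856 lay 11014 bp from the nearest gene, with 16 fragments at the background floor and a fold of 5.2.

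The next 10 members by fold at protein-coding ends had folds of 3.77 to 4.77. They lay at Ncam1 (a neural cell adhesion molecule, 24 fragments), Usp22 (a deubiquitinase of the SAGA complex, 51), Slc26a6 (an anion exchanger, 13), Ctnna3 (an alpha catenin, 31), Ap3m2 (an adaptor subunit, 19), Rap2b (41), Helt (a basic helix-loop-helix repressor, 12), Tasor2 (12), Gpc6 (a glypican, 20) and Nlk (a kinase of Wnt and Notch signalling, 31). Fold and fragments ranked members differently. At Cnot1 (the scaffold of the CCR4-NOT deadenylase) 58 fragments over a background of 15 gave a fold of 3.69, and at Sp2 (a zinc finger transcription factor) 35 over 12.5 gave 2.67. Both were chosen after their values were seen.

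Many promoters under strong members held several CCAAT boxes. The search was for CCAAT on both strands in the 300 bases of the promoter table, and the counts of several boxes were added after the data were seen. The 37 strong members on promoters touched 49 promoters of 46 genes, since divergent genes and alternative starts share a member. Of the 49, 31 (63.3%) held at least 1 box, 24 (49%) at least 2 and 18 (36.7%, exact 95% interval 23.4 to 51.7) at least 3. Over all 31396 promoters the shares were 37.3%, 11.6% and 3.33%. Counted by member, 16 of the 37 had a promoter with 3 or more boxes.

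Promoters touched only by members under 15 fragments were near the share of all promoters: of 57, 22 (38.6%) held a box and 0 held 3 or more, which allows up to 6.27% by the exact interval. Among peaks with 15 or more fragments that were not members, 42 of 462 promoters (9.09%, 6.63 to 12.1) held 3 or more. The share was 21.2% of 33 promoters where the peak met Mgea5 only, 9.3% of 86 with Panx2 only, 9.51% of 263 with Mgea5 and Panx2 and 2.5% of 80 with a Polr1c repeat 1 peak. The interval of the Mgea5 set, 8.98 to 38.9, overlaps that of the strong members. The share under strong members depended on the rule. Of the single lists, only leaving out Panx2 replicate 2 moved it beyond its interval, to 26 of 134 promoters (19.4%). It was 14.8% when a touch needed an overlap of at least 50% of both peaks. With the other lists limited to a −log10 p of at least 2 it was 20.9%, and with no other peak within 1000 bp 0 of 2 promoters.

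**Figure D4:**
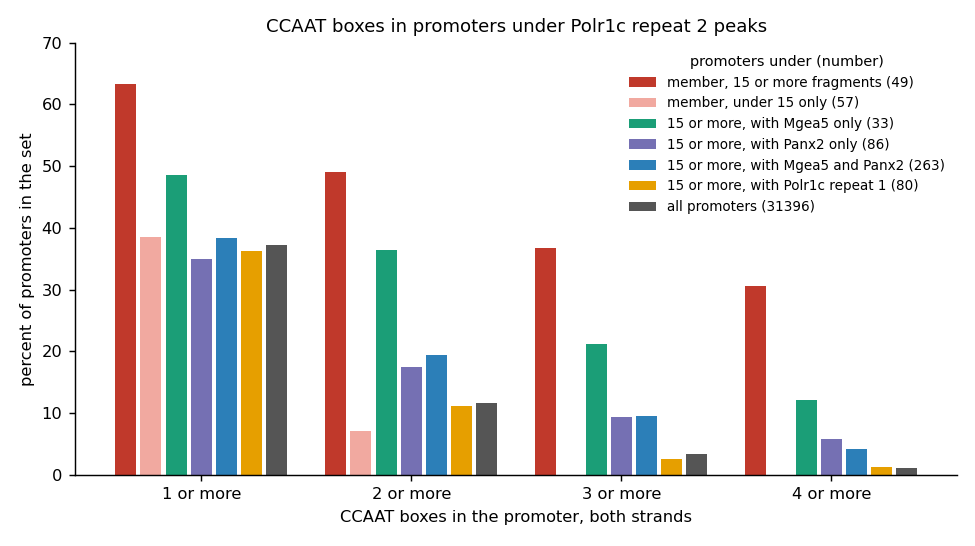
Percent of promoters with at least 1, 2, 3 or 4 CCAAT boxes on either strand, for promoters under 6 sets of Polr1c repeat 2 peaks and for all promoters, with the number of promoters in brackets. Promoters under members of 15 or more fragments have the tallest bar in each group, and 36.7% hold 3 or more.

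In the 31 promoters with a box, the distance from the summit to the nearest box had a median of 20 bp, was at most 50 bp in 22, and reached 280 bp. More boxes in a window of fixed length put the nearest one closer to any point, so the distance was also split by the number of boxes, after the data were seen. The median was 90 bp in the 7 promoters with 1 box and 9 bp in the 24 with more. Under other repeat 2 peaks of 15 or more fragments it was 134 bp with 1 box (90 pairs of promoter and peak) and 40 bp with more (87 pairs). The sets differ in box number within the latter class. With 3 or more boxes the median was 9 bp in 18 pairs of members and 23 bp in 42 pairs of other peaks. In the member promoters, neighbouring boxes were a median of 40 bp apart, and 31 of 74 spacings were 20 to 40 bp. Promoters that share a member can share boxes, so some distances and spacings were counted more than once. In 36 of the 49 promoters the summit lay upstream of the start. The window runs from 250 bp before to 50 bp after a start, so a mostly upstream count is built in.

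Further promoters with several boxes, also named after their values were seen, were those of Sp2 (6 boxes), Eif2ak3, the endoplasmic reticulum stress kinase also called PERK (6), Ska2, a spindle and kinetochore protein (5), Osbp, the oxysterol-binding protein (5), Hmgcs1, an enzyme of cholesterol synthesis (4), and Glrx5 and Ticrr (4 each). Their members had 15 to 35 fragments. The Ticrr member, with 15 fragments, had a q of 0.948, and the Osbp member, with 20, a q of 1.33e-03. CCAAT followed after 9 bases by CCACG, on either strand, was found in 2 of the 49 promoters, Hsp90b1 and Pan2, and in 36 of all promoters (0.115%).

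Other motifs were counted in the 49 promoters, in the 106 under members of any pileup and in 1262 under other repeat 2 peaks of any pileup. The 106, not the 49, are thus the like set for the 1262. The GC box GGGCGG was in 77.6% of the 49, 51.9% of the 106 and 67.8% of the 1262, with 36% of all promoters. TATAAA was in 6.12%, 10.4% and 5.55% (13.6% of all). The E box CACGTG was in 4.08%, 4.72% and 10.2% (7.14% of all). The A box and the B box were in none of the 49, with 0.653% and 0.127% of all promoters holding them. CpG dinucleotides had a median of 22 per promoter in the 49, 15 in the 106, 25 in the 1262 and 7 in all promoters. Motifs were searched on both strands, and a match describes letters, not binding.

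At genes of RNA polymerases I and III, members were few beside the other repeat 2 peaks. Of 391 tRNA genes on chromosomes 1 to 19, 14 (3.58%) had a member within 200 bp, where 41.4% had any repeat 2 peak. Near these genes lay 12 members (0.158%), against 0.408% of all repeat 2 peaks. The tRNA genes with 200 bp on either side are 0.00743% of the span, so the share of members was above that of the span. Of the 144 repeat 2 peaks there, 93 met a Polr1c repeat 1 peak, which the rule leaves out. Pileups of those 93 had a median of 24, and those of the 12 members were 10 to 31 with a median of 15. The member of highest fold among them covered n-TPagg4 and n-TTtgt3 (tRNA genes for proline and threonine by their symbols) at chr14:51064754-51065274, with 15 fragments at the background floor and a fold of 4.89, and a Polr1c repeat 1 peak lay 670 bp away. Members at n-TLcag4 and n-TStga3 had 23 and 31 fragments and folds of 4.34 and 4.24.

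The n-TStga3 member was also the one 447 bp from Ctnna3. By fold, the next tRNA genes were n-TIaat9 (3.7), n-TIaat11 (3.59), n-TYgta7 (3.46), n-TKctt29 (3.2) and n-TPagg6 (3). The only member of this kind off a tRNA gene covered Rmrp, the RNA of RNase MRP, at chr4:43492898-43493067, with 23 fragments over 6.83, a fold of 3.06 and a q of 3.81e-03. No member lay within 200 bp of an annotated ribosomal RNA gene (0 of 7584, which allows up to 0.0486% by the exact interval). Of all repeat 2 peaks 40 (0.113%) did, and 33 of these met both Mgea5 and Panx2, which the rule leaves out.

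Protein-coding genes with a member at an end numbered 377 of 20661 (1.82%), those with any repeat 2 peak 3796 (18.4%), and those with a strong member 69 (0.334%). Lists of genes were read against these shares. Of 12 neural progenitor genes 1 had a member, Notch1, with 9 fragments and a q of 0.781. Of 36 cell cycle genes 2 had one, Ccna2 and Ccnb2, each with 8 fragments. Of 24 factors of RNA polymerases I and III 2 had one, Rrn3 and Gtf3c2, with 10 and 11 fragments. Of 51 Wnt genes 1 had one, Wnt9a with 7 fragments. None of these members had 15 fragments.

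Zinc finger genes with Zfp symbols had a member in 10 of 388 (2.58%), solute carriers in 8 of 324 (2.47%) and olfactory receptors in 3 of 1104 (0.272%). Ribosomal proteins had one in 2 of 81, oxidative phosphorylation genes in 2 of 79 and Hox genes in 2 of 39. Synaptic adhesion and other long neuronal genes had one in 2 of 60. The last were Ctnna3 and Gpc6, both with a strong member, but the one at Ctnna3 covers the tRNA gene n-TStga3. A strong member also lay at a Zfp gene, Zfp296 (named after its value was seen) with 15 fragments, and a solute carrier, Slc9a8 with 22. Of 23 immediate early genes (Atf3), 32 Polycomb and Trithorax genes (Ezh2) and 26 imprinted genes (Kcnq1), 1 each had a member. So had 1 each of 8 microglial markers (Tmem119), 12 O-GlcNAc genes (Nagk) and 38 proteasome genes (Psmb3). These members had 6 to 9 fragments. Markers of neurons, astrocytes, oligodendrocytes and vessels, 8 genes in each list, had none. Nor had 32 RNA polymerase subunits, 17 microRNA processing genes, 63 histones, 352 vomeronasal receptors, 57 protocadherins, 109 keratins or 70 defensins. Most of these lists are short beside the share of 1.82% over all protein-coding genes, so 0 or 1 gene in a short list is no result about the members. Peak positions do not measure expression, so the cell type could not be checked with these lists.

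The study's title concerns the miR-9 locus, and no member was near it. The nearest member lay 96268 bp from Mir9-1, 11562 bp from Mir9-2 and 154842 bp from Mir9-3. Within 5000 bp of a microRNA gene, members lay at 47 of 1136 genes (4.14%), and any repeat 2 peak at 266 (23.4%). Of 55 brain microRNA genes 6 had a member, at Mir34a (11 fragments), Mir184 (8), Mir21a (15) and the cluster of Mirlet7d, Mirlet7f-1 and Mirlet7a-1 (1 member of 9). Oga, which encodes Mgea5, held 1 member with 7 fragments and a q of 1, while Panx2 and Polr1c held none, with the nearest 342497 and 68170 bp away, and Ogt is not on chromosomes 1 to 19.

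Members were spread thinly along the chromosomes. The next member lay a median of 171072 bp away, and 47 of 7565 gaps were at most 1000 bp. The share of repeat 2 peaks that were members ran from 16.8% on chromosome 3 to 24.3% on chromosome 12. Beyond 45 Mb on chromosome 14 there were 23 members (0.288 per Mb, against 3.55 per Mb in the part before it), and all repeat 2 peaks were sparse there too (1.54 per Mb against 16.6), of which 18.7% were members. The densest runs within 1 Mb were 16 members of 40 repeat 2 peaks on chromosome 8 near Zfp423 and Nkd1, 16 of 41 on chromosome 11 near Rab11fip4 and Rhot1, and 15 of 42 on chromosome 4 near Rpl11 and Kdm1a.

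Some long genes held several members, with 7 in Msi2 (the RNA-binding protein Musashi 2), 7 in Rora (a nuclear receptor), 6 in Mast4 and 6 in Pde4d (a cAMP phosphodiesterase). Per 100 kb this was 1.85 in Msi2, 0.953 in Rora, 0.996 in Mast4 and 0.461 in Pde4d, against 0.316 over chromosomes 1 to 19. The genes were picked by their number of members, so densities above the mean are no result. All repeat 2 peaks numbered 19 in Msi2, 13 in Rora, 11 in Mast4 and 19 in Pde4d. The members in these genes had 6 to 11 fragments.

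Most members were near a peak of another list without touching it. The gap to the nearest peak of any other list had a median of 312 bp, and 6610 members (87.2%) were within 1000 bp. The 5 other lists together covered 35% of the span, and Mgea5 repeat 1 alone has 536877 peaks. The share of the span within 1000 bp of a listed peak was not computed. Nearness is thus not shown to be a trait of the members. For strong members the median was 254 bp. The other lists hold weak peaks too: limited to a −log10 p of at least 2, they left 27974 members. The median gap to Polr1c repeat 1 alone was 1343419 bp, and 11 members lay within 1000 bp of a repeat 1 peak, the nearest at 417 bp. At the boundary of the rule, 18 members abutted another peak with no gap, and 17 other peaks shared 1 bp. The 3 strongest of the former had folds of 3.98, 3.36 and 3.06, and those of the latter 3.06, 3.06 and 2.98.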

How the data were processed

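The members, the gene lists and the motifs were chosen with earlier results of these data known. Each of the 6 ChIP libraries has 1 peak list. Per the submitters' processing notes, Trim Galore, Bowtie2 2.3.5 and MACS3 3.0.0a5 were used on mm10. Which control the caller used, its cut-offs, and any filters were not given in the sources used here.

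Each peak carries, as deposited by the authors, a fold (the ratio between ChIP and local background pileup), a −log10 p and a −log10 q. Per the file headers and names the Mgea5 and Panx2 lists are broad peaks and the Polr1c lists narrow peaks, and the lowest deposited −log10 p of the repeat 2 list was 2.00. The deposited score column was not used. Folds are the authors' and only describe or rank peaks within their list. The name of each peak carries a calling run: Panx2 repeat 1 and Polr1c repeat 1 share a run, and the other 4 lists share another.

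Members were found with an overlap of 1 bp and checked with bedtools 2.31.1. Of the 35927 peaks of the list, 603 off chromosomes 1 to 19 were left out. The summit pileup k and the background λ were solved from fold = (k + 1)/(λ + 1) and the Poisson tail p of the peak caller, a formula known for MACS and not stated in the labels. Of 35324 peaks, 35315 had exactly 1 whole number within 0.001 on the −log10 p scale. The read depth of the library is unknown.

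Genes, starts and promoter sequences came from RefSeq tables on GRCm38.p6, whose coordinates are those of mm10. The gene table has no strand, so windows of 1000 bp were set around both ends of a gene. The promoter table holds none of chromosome 18. Intervals for shares are exact (Clopper-Pearson) at 95%. Computation used python 3.11.15, pandas 2.3.3, numpy 2.4.6, scipy 1.17.1 and matplotlib 3.10.9, and overlap, distance and pileup routines were tested on simulated data.

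Genes were named by a rule: the 20 members of highest fold, the 10 further members of highest fold at protein-coding ends, up to 10 members by fold at RNA polymerase I or III genes, members within 5000 bp of listed microRNAs, up to 4 members by fold per gene list, the 5 protein-coding genes and the 3 runs with most members, the 3 peaks on either side of the overlap boundary, and the genes of the 3 proteins and Ogt. Other names, the pileup classes, counts of several CCAAT boxes and the 9-base spaced motif were chosen after the values were seen. Alternatives changed the overlap rule, the lists used, the thresholds, the windows and the pileup boundary. Some results that the naming rule covers are not reported here.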

Additional observations from a re-analysis of the deposited data

How the results depend on the processing

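No paired analysis was possible because the results are counts and shares from 1 library, with no test. The number of members depended strongly on the overlap rule and on Mgea5 repeat 1 and Panx2 repeat 2. The median fold was 2.75 in 11 of 12 alternatives. That is also the median of all repeat 2 peaks, and folds at the background floor move in steps of 0.306. An unchanged median therefore says little about the rule. With reciprocal overlap of 50%, members numbered 30246 (85.6% of peaks), 817 with a q of at most 0.01, with 10.8% at ends of 3223 genes, 47.8% of strong members at ends, and 14.8% of promoters under strong members with 3 or more CCAAT boxes. With no other peak within 1000 bp, the values were 975 (2.76%), 9, 1.54%, 16 genes and 0 of 2 promoters. With the other lists limited to a −log10 p of at least 2, they were 27974 (79.2%), 499, 6.83%, 1970 genes and 20.9% of promoters. With repeat 2 peaks of q at most 0.01 only, members were 113 (8.8%), the median fold 4.15, and 27.4% lay at ends of 38 genes. With lists of replicate 2 only, members were 12755 (36.1%), 228 by q, with 5.32% at ends of 718 genes. With lists of the same calling run, added after the data were seen, 23% of peaks were members. Windows of 500 and 2500 bp gave 2.62% and 9.32% at ends, of 213 and 784 genes. A pileup of 12 or more, also added later, put 18% of strong members at ends.

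Leaving out 1 list at a time gave 7627 to 12074 members (21.6% to 34.2% of peaks), 120 to 241 by q, 4.52% to 7.73% at ends, 390 to 983 genes, 33.5% to 51.3% of strong members at ends and 19.4% to 36% of promoters with 3 or more boxes. Panx2 repeat 2 gave the upper or, for promoters, the lower end of each range. Over alternatives not named here, counts stayed within 1.5 times and shares within the exact interval of the value reported. Of 90 recomputed gene list counts, 37 moved by more than 1.5 times, most of them from counts of 1 or 2.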
